A study of Mus musculus with 8 samples.

Results

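Glycolysis, the chain of enzymes that turns glucose into pyruvate and lactate, and the pentose phosphate pathway, which branches off it at glucose 6-phosphate, were followed through 33 enzyme genes in Eklf-/- fetal liver. The members were taken by name, from hexokinase to lactate dehydrogenase with the Pfkfb enzymes that set the pace of phosphofructokinase, and from glucose 6-phosphate dehydrogenase to transaldolase. Each was read through every probe set whose platform annotation gives that gene symbol alone. Of the 18194 symbols with such a probe set, 29 were members, while Gpi1, Eno1, Pfkfb1 and G6pdx were not analysed here. The livers came from E14.5 mouse fetuses, 4 wild type (WT) and 4 knockout (KO). EKLF, encoded by Klf1, is a zinc finger transcription factor of red cell precursors, and the KO fetuses (Eklf-/-) carry a homozygous knockout of the gene, made in B6 mice with an engineered BAC construct and E2A-Cre animals. Whole uncultured livers were dispersed in PBS and their total RNA was hybridized to Affymetrix arrays, 1 per sample, so that erythroid, hepatic and other cells were read together. In each genotype the number of embryos given by the authors equals the number of arrays, and the p-values measure the spread between these samples.

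A maturing red cell comes to live on glycolysis alone, since it gives up its mitochondria. Its pathway has a side loop of its own, in which bisphosphoglycerate mutase (Bpgm) makes 2,3-bisphosphoglycerate, the metabolite that loosens the hold of hemoglobin on oxygen. The oxidative arm of the pentose phosphate pathway supplies NADPH, with which red cells keep glutathione reduced, and the non-oxidative arm shuffles sugars between ribose 5-phosphate and glycolysis. Several steps are served by more than one gene. Pklr encodes the pyruvate kinase of liver and red cells and Pkm that of most other tissues, Hk1 the hexokinase of red cells and Hk2 an inducible form, and Pfkl, Pfkm and Pfkp the liver, muscle and platelet forms of phosphofructokinase.

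Pklr was the member with the deepest fall in KO, so the sequences before its starts are shown. It has 2 annotated transcription starts, 481 bases apart on the plus strand of chromosome 3, and textbooks place the red cell form of the enzyme at the upstream start and the liver form at the downstream start. The letters CACCC, at the core of the EKLF binding sequence, occur once in the 250 bases before the upstream start, on the reverse strand, and are printed in capitals as they read on the strand shown. They do not occur in the 250 bases before the downstream start. The sequences are from RefSeq (GRCm38.p6, plus strand, chr3:89135892-89136141 and chr3:89136373-89136622), given 5′ to 3′.
Pklr, before the upstream start: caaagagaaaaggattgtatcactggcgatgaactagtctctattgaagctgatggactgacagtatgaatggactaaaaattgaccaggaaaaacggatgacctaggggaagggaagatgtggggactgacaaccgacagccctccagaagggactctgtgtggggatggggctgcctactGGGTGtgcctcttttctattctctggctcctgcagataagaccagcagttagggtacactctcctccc
Pklr, before the downstream start: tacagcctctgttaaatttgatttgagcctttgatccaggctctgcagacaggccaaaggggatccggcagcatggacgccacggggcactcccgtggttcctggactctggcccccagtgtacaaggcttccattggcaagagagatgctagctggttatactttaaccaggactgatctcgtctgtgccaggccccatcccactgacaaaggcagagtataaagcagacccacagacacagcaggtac

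All 33 members were matched to RefSeq windows of 250 bases before and 50 after a start, 52 windows in all. CACCC on either strand was present in 35 of the 52 (67.3%), against 57.5% of the 32851 windows of all genes. The longer motif CCNCNCCC, searched on both strands and overlapping some CACCC matches, was present in 39 of the 52, against 49.5% of all windows. Windows of the same gene can overlap, so a match can be counted more than once. By gene, 24 of the 33 members held CACCC in any window, against 59.8% of 27025 genes, and 28 held the longer motif, against 51.9%. A gene with more windows has more chances of a match, and the members include those that rose, were not called or were not measured. Neither Pklr window holds the longer motif. Letters that match a motif are a description of the sequence, and binding was not measured on these arrays.

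The authors computed MAS5.0 signals, which were log2-transformed here, and every level below is a log2 signal. Values are given in the order of WT replicates 1 to 4 and KO replicates 2 to 5. limma was run on the 23379 of 45101 probe sets whose WT or KO mean exceeded a signal of 100, p-values were adjusted over all of them by Benjamini-Hochberg at a threshold of 0.05, and a gene is represented by its probe set with the highest mean over the 8 arrays. A difference is KO minus WT, and "called" means an adjusted p below the threshold. Klf1 itself was lower by 3.29 in KO (SE 0.10, adjusted p = 5.9e-07 from limma). The sources used here do not place its probe set inside or outside the part of the gene that was removed. WT replicate 1 stood apart by the sex-linked genes Xist (13.03, against 6.17 to 6.84 in the other WT arrays) and Kdm5d (3.41, against 8.93 to 9.17). The only X-linked member measured was Pgk1, and its difference was 0.48 without that array and 0.43 with it. The arrays share a common trimmed mean of 500, and their median signals ran from 79.5 to 84.1 in WT and from 96.7 upwards in KO. WT and KO arrays also carry separate codes in their labels, and any difference in preparation cannot be told apart from genotype. The number of arrays limits the precision.

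More of the pathway was higher than lower in the KO fetal liver. Of the 26 members tested, 12 rose and 3 fell, and 11 were not called. The members that rose were Hk2, Pfkm, Pfkp, Pfkfb3, Aldoa, Aldoc, Tpi1, Pgk1, Pgam1, Pkm, Pgd and Taldo1. The 3 that fell on their brightest probe set were Pklr, Tkt and Hk1, and the direction of Tkt and Hk1 turned when arrays were scaled to the hybridisation controls. The share that rose, 46.2%, stands beside 25.5% of the 11275 genes tested by the same rule, and the share that fell, 11.5%, beside 21.0%. The split of calls moved with the scaling, and so did that of all genes. It was 14 higher and 1 lower after quantile normalization, where 16.4% of all genes rose and 26.4% fell. With arrays set to the same 75th percentile it was 8 and 5, where 12.7% of all genes rose and 37.4% fell. With hybridisation control scaling it was 23 and 1, but 76.0% of all genes rose at that scaling and 2.57% fell. The median difference over the 26 members was 0.30, against 0.060 over all genes. All 26 had both group means above a signal of 100. Pgam2 and Eno2, the muscle mutase and the neuronal enolase, were too dim in both groups to be tested, and Gapdh was read only by control probe sets.

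Counted by probe set, 61 outside the controls read a member and 55 were tested, 29 of them called higher and 6 lower. Among the 29 were 1 probe set each of Pfkp and Pfkfb3 that passed the minimum through KO alone. Over the whole array 34.4% of those tested rose and 17.7% fell. The KO arrays were all higher than the WT arrays in 13 of the 26 genes and all lower in 4, where the shares of all genes are 24.4% and 20.9%. Of the 15 members with more than 1 tested probe set, Hk1 and Tkt had probe sets called in opposite directions. In Pklr all 3 probe sets were lower, with differences of -2.79, -1.77 and -1.29. Names that end in _x_at or _s_at, which mark probe sets with probes shared between transcripts, belong to 16 of the member probe sets.

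**Figure D1:**
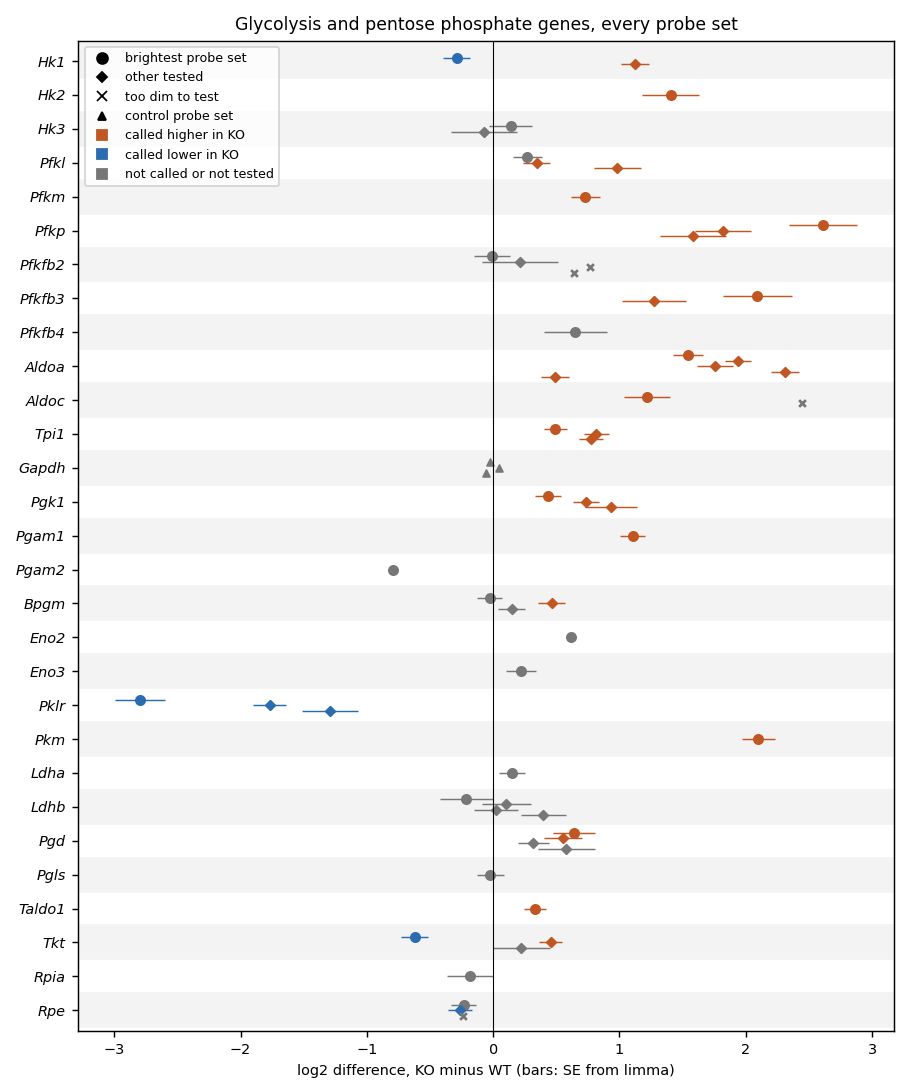
Every probe set that reads a member (y axis, in pathway order) at its KO minus WT log2 difference (x axis), with bars of 1 SE from limma. Circles are the brightest probe set of each gene, diamonds the others, crosses probe sets too dim to test and triangles the control probe sets of Gapdh; orange is called higher, blue called lower and grey not called or not tested. The dimmest probe sets of Pfkp and Pfkfb3 lay below the minimum in WT, so the sizes of their differences are not exact. Pklr lies left of 0 on all 3 probe sets, Pfkp, Pfkfb3, Aldoa and Pkm lie right of 0 on all of theirs, and Hk1 and Tkt have called probe sets on both sides. The blue probe sets of Hk1, Tkt and Rpe cross 0 when arrays are scaled to the hybridisation controls.

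The cells that make up the liver differed on the same arrays, and in bulk tissue fewer cells of a type and less RNA per cell cannot be told apart. All 9 erythroid markers tested were called lower in KO (median difference -1.74), 6 of them also with hybridisation control scaling, where Rhag and Kel lay above 0, and their summed signal ran from 132034 to 136708 in WT and from 50033 to 54971 in KO. Among the 11 hepatoblast and hepatocyte markers, 8 fell and 1 rose, with summed signals of 263399 to 283189 and 171365 to 202965, but none was called lower after quantile normalization and all 11 lay above 0 with hybridisation control scaling. Alb and Slc4a1, defining markers of hepatocytes and of erythroid cells, were bright on every array, at 14.66 to 15.64 and 13.51 to 14.80. Of 10 endothelial markers 8 were higher, with summed MAS5.0 signals of 6417 to 6725 in WT and 8059 to 10115 in KO, and 4 were higher after quantile normalization. Of 8 megakaryocyte markers 6 were higher (25097 to 28169 and 30189 to 38284). Granulocyte markers had 3 of 10 higher. Their summed signal was 123869 on KO replicate 5, and without that array it ran from 49287 to 58759 in KO, against 47298 to 55301 in WT. Macrophage markers had 1 of 10 lower on the MAS5.0 scale, with ranges that overlapped (16018 to 20727 and 10526 to 22051) and Vsig4 below the minimum in both groups, but 6 lower with 75th percentile scaling, and 4 higher and 1 lower with hybridisation control scaling. The part of these shifts in the differences of the members was not tested.

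Glucose enters the pathway through hexokinase, where the inducible form rose. Hk2 read 9.76, 9.53, 9.84 and 9.72 in WT and 10.64, 11.36, 10.79 and 11.69 in KO. Every KO array was above every WT array, with KO replicates 3 and 5 the highest. The difference was 1.41 (SE 0.23, adjusted p = 0.001 from limma), a 2.65-fold rise. Hk1, the red cell form, read 11.87, 11.76, 11.97 and 11.84 in WT and 11.64, 11.37, 11.59 and 11.69 in KO on its brightest probe set. This fall of 0.29 (SE 0.11, adjusted p = 0.049 from limma) was small, was no longer called when any array other than KO replicate 5 was left out, and turned to 0.46 when arrays were scaled to the hybridisation controls. A second Hk1 probe set was higher by 1.12 (SE 0.11, adjusted p = 8.1e-05), reading 9.31 to 9.48 in WT and 10.33 to 10.72 in KO, so the data give no single direction for Hk1. Hk3, the hexokinase of myeloid cells, differed by 0.14 and was not called.

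The committed step, phosphofructokinase, was carried by 3 forms with unequal changes. Pfkp, the platelet form, read 8.74, 8.38, 8.64 and 8.32 in WT and 10.45, 11.48, 10.85 and 11.75 in KO. This was the largest rise among the members, 2.61 (SE 0.27, adjusted p = 0.00011 from limma) or 6.12-fold, and a second probe set was higher by 1.82. The third lay below the minimum in WT and gives no size. Pfkm, the muscle form that red cells also use, read 10.39, 10.19, 10.21 and 10.25 in WT and 11.17, 10.79, 11.10 and 10.90 in KO. It rose by 0.73 (SE 0.12, adjusted p = 0.00098), with no overlap between the groups. Pfkl, the liver form and the other red cell subunit, read 11.99, 12.04, 12.14 and 12.06 in WT and 12.23, 12.29, 12.20 and 12.60 in KO. Its KO arrays all lay above the WT arrays, but the difference of 0.27 was not called on the brightest probe set (SE 0.12, adjusted p = 0.077), while the other Pfkl probe sets were called higher, at 0.34 and 0.98.

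The Pfkfb enzymes make and break fructose 2,6-bisphosphate, the activator of phosphofructokinase. Pfkfb3, the form in which synthesis prevails, read 7.46, 7.39, 7.91 and 7.28 in WT and 9.28, 9.92, 8.98 and 10.22 in KO. The rise of 2.09 (SE 0.27, adjusted p = 0.00036 from limma) was 4.26-fold, and KO replicates 3 and 5 were again the highest. Pfkfb4 differed by 0.65 and narrowly missed the threshold (SE 0.25, adjusted p = 0.053), with 1 WT array inside the KO range. Pfkfb2 differed by -0.0077 and was not called.

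Every tested gene of the middle of glycolysis, where fructose bisphosphate is split into triose phosphates, was higher. Aldoa, the aldolase of red cells and muscle, read 12.97, 12.72, 12.93 and 12.68 in WT and 14.21, 14.31, 14.53 and 14.41 in KO. The rise was 1.54 (SE 0.12, adjusted p = 2.1e-05 from limma), or 2.91-fold, and its 5 probe sets, all with shared-probe names, were higher by 0.49 to 2.31. Aldoc, the brain form, read 8.98, 8.76, 8.74 and 8.91 in WT and 9.69, 10.33, 9.80 and 10.44 in KO. It rose by 1.22 (SE 0.18, adjusted p = 0.00073). Tpi1, triose phosphate isomerase, rose by 0.49 (SE 0.089, adjusted p = 0.002), and its other probe sets by 0.77 and 0.82.

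**Figure D2:**
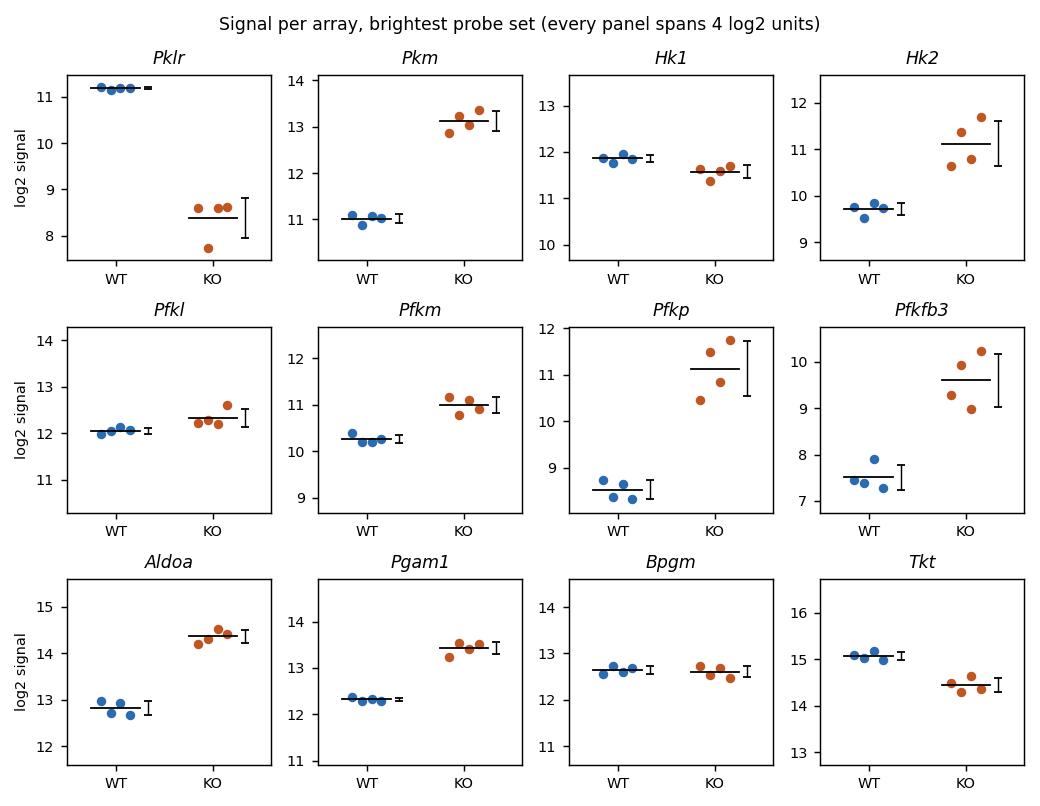
Log2 signal (y axis) of the brightest probe set of 12 members on each array, with WT in blue and KO in orange, a line at the group mean and a bar of 1 SD on either side of it (n = 4). Every panel spans 4 log2 units, so heights can be compared between panels as differences; Pklr drops from 11.18 to 8.38 with KO replicate 3 lowest, Pkm climbs from 11.02 to 13.12, and the KO arrays of Hk2, Pfkp and Pfkfb3 are spread more widely than their WT arrays.

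Below the triose phosphates the genes differed in size of change. Gapdh, the dehydrogenase of the pathway, was read by 3 control probe sets, along the 5′, middle and 3′ parts of its transcript. The 5′ probe set read 14.72, 14.64, 14.72 and 14.62 in WT and 14.62, 14.61, 14.79 and 14.58 in KO, and the others read 14.41 to 14.77 in WT and 14.38 to 14.84 in KO. Their differences were -0.024, 0.047 and -0.057 (exact permutation tests over 70 assignments, two-sided, p = 0.74, 0.54 and 0.46), the groups overlapping on each. These values hold on the MAS5.0 scale only, since hybridisation control scaling adds 0.75 to each difference. Pgk1, phosphoglycerate kinase, read 14.04, 13.86, 13.82 and 13.91 in WT and 14.23, 14.47, 14.23 and 14.42 in KO. It rose by 0.43 (SE 0.11, adjusted p = 0.0084 from limma), with its other probe sets at 0.73 and 0.93. Pgam1, the mutase that carries 3-phosphoglycerate on towards pyruvate, read 12.38, 12.30, 12.34 and 12.30 in WT and 13.25, 13.54, 13.42 and 13.52 in KO. That rise of 1.10 (SE 0.10, adjusted p = 5.3e-05) was 2.15-fold.

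Bpgm, the mutase of the red cell side loop, was bright in both genotypes. On its brightest probe set it read 12.55, 12.73, 12.59 and 12.68 in WT and 12.73, 12.54, 12.69 and 12.47 in KO, with the groups overlapping. The difference was -0.029 (SE 0.10, adjusted p = 0.83 from limma), but this probe set has a shared-probe name. The next, whose name marks no shared probes, was higher by 0.46 (SE 0.11, adjusted p = 0.0075), at 12.15 to 12.46 in WT and 12.64 to 12.89 in KO, and the last differed by 0.15 (adjusted p = 0.29). None of the 3 was called lower on the MAS5.0 scale, on arrays where all 9 erythroid markers were, though the brightest was with 75th percentile scaling (-0.30, adjusted p = 0.044).

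At the end of glycolysis the pyruvate kinase genes moved in opposite directions. Pklr read 11.21, 11.15, 11.18 and 11.18 in WT and 8.59, 7.74, 8.59 and 8.61 in KO. The WT arrays were nearly equal (SD 0.027) and all KO arrays were far below them, KO replicate 3 by the most. Pklr fell by 2.79 (SE 0.20, adjusted p = 1.5e-05 from limma), or 6.94-fold. Pkm read 11.09, 10.88, 11.07 and 11.03 in WT and 12.85, 13.23, 13.04 and 13.36 in KO. Its rise of 2.10 (SE 0.13, adjusted p = 8.1e-06) was 4.29-fold and rests on a single probe set. The sources used here do not place the Pklr probe sets relative to the starts shown above, so the red cell and liver transcripts were not separated.

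The enolase and lactate dehydrogenase genes were not called on the MAS5.0 scale. Eno3, the muscle enolase, differed by 0.22 (SE 0.12, adjusted p = 0.14 from limma). Ldha, which encodes the M subunit of lactate dehydrogenase, read 14.36, 14.34, 14.53 and 14.34 in WT and 14.53, 14.45, 14.71 and 14.48 in KO. The difference was 0.15 (SE 0.10, adjusted p = 0.24). After quantile normalization Ldha was called higher (0.65, adjusted p = 0.00048 from limma). With hybridisation control scaling, where 76.0% of all genes rose, Ldha (0.90, adjusted p = 0.00031) and Eno3 (0.97, adjusted p = 0.0002) were called higher. Ldhb, the H subunit, read 9.33, 9.34, 9.86 and 9.30 in WT and 9.45, 8.86, 9.67 and 9.01 in KO, a difference of -0.21 (SE 0.21, adjusted p = 0.41), and none of its 4 probe sets was called.

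In the oxidative arm of the pentose phosphate pathway, Pgd, the 6-phosphogluconate dehydrogenase that makes NADPH, was higher. It read 11.74, 11.51, 11.85 and 11.47 in WT and 12.56, 11.89, 12.24 and 12.44 in KO. The rise was 0.64 (SE 0.16, adjusted p = 0.011 from limma). Of its 4 probe sets 2 were called, and the 1 without a shared-probe name differed by 0.32 and was not called (adjusted p = 0.058). Pgls, the lactonase between the dehydrogenases, differed by -0.022.

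The non-oxidative arm gave no common direction. Tkt, transketolase, read 15.08, 15.03, 15.17 and 15.00 in WT and 14.49, 14.29, 14.64 and 14.37 in KO on its brightest probe set, which has a shared-probe name. This was a fall of 0.62 (SE 0.11, adjusted p = 0.0016 from limma), though it turned to 0.13, not called, when arrays were scaled to the hybridisation controls. It was not called after quantile normalization (-0.12, adjusted p = 0.32 from limma). The signal lies close to the highest log2 value on any array, 15.88 on WT replicate 3, and the highest values of the KO arrays were lower. A second Tkt probe set with no shared-probe name was higher by 0.45 (SE 0.093, adjusted p = 0.0036), at 12.77 to 12.88 in WT and 13.15 to 13.38 in KO, so Tkt has no single direction. Taldo1, transaldolase, rose by 0.33 (SE 0.091, adjusted p = 0.014). Rpia and Rpe, the isomerase and epimerase of the pentose phosphates, differed by -0.18 and -0.23 and were not called on their brightest probe sets, while a second Rpe probe set was called lower at -0.26 (adjusted p = 0.046). Hybridisation control scaling, which adds 0.75 to each difference, turns the sign of all of these.

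The balance between forms was compared within each array, as the log2 signal of the first gene less that of the second, so that a scaling of the whole array cancels. Of 12 pairs planned, 8 had both genes tested, and 6 of the 8 changed with adjusted p = 0.038 (two-sided exact permutation test of the 70 ways to assign the arrays, unadjusted p = 0.029, which is the lowest this design can give, adjusted over the 8 pairs). The p-value adds nothing for Pklr less Pkm and Hk1 less Hk2, whose single genes already separated the genotypes in opposite directions. Pfkp and Bpgm recur among the 6 pairs, and the share of all gene pairs that separate in this way was not computed. The Pklr less Pkm difference moved by -4.89 between genotypes, a 29.8-fold change. On single arrays it was 0.12, 0.26, 0.11 and 0.15 in WT and -4.26, -5.49, -4.45 and -4.74 in KO. Each probe set has a brightness of its own, so the values within an array are no measure of which gene is the more abundant, and only their change between genotypes is read.

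Phosphofructokinase moved towards Pfkp from both other forms. The Pfkl less Pfkp difference changed by -2.34 (5.07-fold), from 3.25 to 3.75 in WT to 0.81 to 1.78 in KO. The Pfkm less Pfkp difference changed by -1.88 (3.69-fold), and Hk1 less Hk2 by -1.69 (3.24-fold), where the Hk1 probe set is the one that read lower and the other Hk1 probe set rose by 1.12 against 1.41 for Hk2. For Hk1 less Hk2, KO replicates 3 and 5 stood at 0.005 and 0.0065 and replicates 2 and 4 at 1.00 and 0.80, all below the WT range of 2.10 to 2.24. Bpgm moved down relative to its glycolytic counterparts, with a change of -1.13 against Pgam1 (2.19-fold) and -0.46 against Pgk1 (1.38-fold), both on the Bpgm probe set with a shared-probe name. The Bpgm probe set that was called higher, by 0.46, had a smaller difference than Pgam1 (1.10) but not than the brightest Pgk1 probe set (0.43), which has a shared-probe name. The other Pgk1 probe sets, at 0.73 and 0.93, had larger differences than it. The Aldoa less Aldoc difference changed by 0.32 (exact permutation test, p = 0.23) and Ldhb less Ldha by -0.36 (p = 0.086, adjusted p = 0.098), and in both pairs the groups overlapped.

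**Figure D3:**
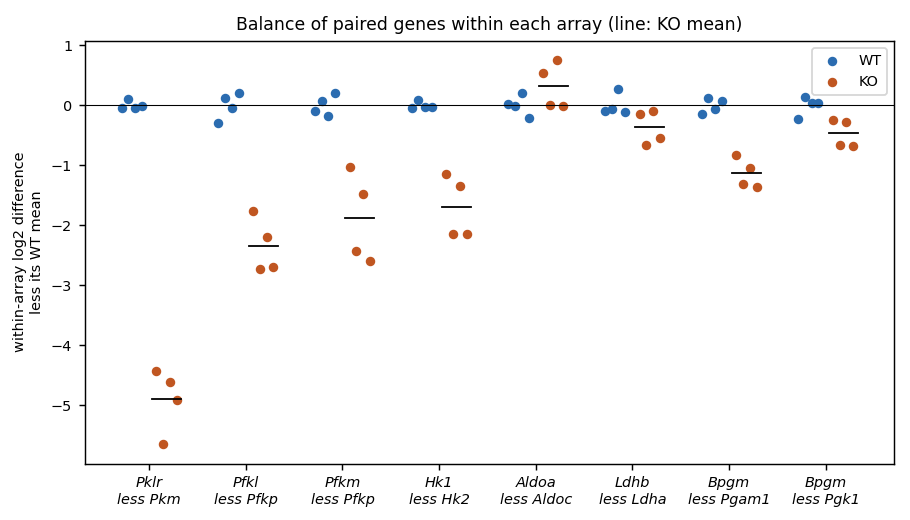
Within-array log2 difference between paired genes (y axis, the first gene less the second, with the WT mean of each pair set to 0) on each WT array (blue) and KO array (orange), with a line at the KO mean. The KO arrays of Pklr less Pkm lie on average 4.89 below the WT mean, and for the pairs Aldoa less Aldoc and Ldhb less Ldha the genotypes overlap.

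On the MAS5.0 scale more of the genes around the pathway fell than rose. Of 54 further genes of glucose, pyruvate and NADPH metabolism, 39 were tested, of which 8 rose, 15 fell and 16 were not called, with a median difference of -0.18. The share that rose, 20.5%, stands beside 25.5% of all genes, and the share that fell, 38.5%, beside 21.0%. With hybridisation control scaling, where 76.0% of all genes rose, the calls were 24 higher and 4 lower, and with poly-A control scaling, where 25.6% rose and 11.6% fell, they were 7 and 8. For 6 of the 15 (Slc2a2, Slc16a1, Bsg, Pgp, Prps1 and Prps2) the sign turned when arrays were scaled to the hybridisation controls.

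The carriers that bring in glucose and let out lactate split by gene. Slc2a1, the GLUT1 glucose carrier, read 14.55, 14.47, 14.45 and 14.51 in WT and 12.50, 13.60, 12.74 and 13.46 in KO, a fall of 1.42 (SE 0.24, adjusted p = 0.0013 from limma) seen on all 3 of its probe sets. Slc2a3, the GLUT3 carrier, read 10.92, 10.68, 10.72 and 10.72 in WT and 12.84, 13.16, 13.00 and 13.37 in KO. That rise of 2.33 (SE 0.13, adjusted p = 6.3e-06) was 5.04-fold, on a probe set with a shared-probe name. Another such probe set was higher by 2.36, and the other two, below the minimum in WT, by at least 10.6-fold and 5.33-fold against that minimum. Slc16a3, the MCT4 lactate exporter of glycolytic cells, had the largest rise of the list, 2.92 (SE 0.14, adjusted p = 3.4e-06) or 7.57-fold, from 7.90 to 8.28 in WT to 10.82 to 11.27 in KO. Slc2a4, the insulin-responsive carrier, had the largest fall, 1.72 (SE 0.21, adjusted p = 0.00023). Slc16a1, the MCT1 lactate carrier, and Bsg, its chaperone, were each lower by 0.44, but higher by 0.31 when arrays were scaled to the hybridisation controls.

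Among the genes that govern the entry of pyruvate into mitochondria, 3 of 5 were higher and none lower on the MAS5.0 scale, while 1 was higher after quantile normalization, 2 with 75th percentile or poly-A control scaling and all 5 with hybridisation control scaling. Pdk2, a kinase that switches off pyruvate dehydrogenase, rose by 1.34 (SE 0.26, adjusted p = 0.0026 from limma) and kept its call at each of these scalings. Pdk4, which lay below the minimum in WT, was at least 2.19-fold higher against that minimum, a call lost after quantile normalization (adjusted p = 0.071). Pdk3 rose by 0.27, but was not called after quantile normalization (0.23) or with 75th percentile (0.0021) or poly-A control scaling (0.34). The brightest Pdk1 probe set differed by 0.30 and was not called (adjusted p = 0.21), while its other 3 were called higher, at 0.82 to 1.43. In gluconeogenesis and glucose release, Pcx, pyruvate carboxylase, fell by 1.16 (SE 0.18, adjusted p = 0.00074) and was not called with hybridisation control scaling (-0.42, adjusted p = 0.054). Pck2, mitochondrial phosphoenolpyruvate carboxykinase, rose by 0.66 (SE 0.18, adjusted p = 0.016) and was not called with 75th percentile scaling (0.39, adjusted p = 0.091). G6pc and Pck1, which mark the mature liver, were below the minimum in both groups.

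Of the 11 other isoforms of glycolysis listed, 4 were tested. Hkdc1, a hexokinase relative, had the largest fall (0.80, SE 0.20, adjusted p = 0.0095 from limma), and none was called higher on the MAS5.0 scale. With hybridisation control scaling 1 of the 5 then tested was called higher. Hkdc1 was not called with poly-A control scaling (adjusted p = 0.053) or with hybridisation control scaling, where it differed by -0.051. In the list of further pentose and ribose enzymes, Rbks, ribokinase, had the largest fall (0.91, SE 0.20, adjusted p = 0.0053), though with hybridisation control scaling it differed by -0.16 and was not called. Pgm1, a phosphoglucomutase, was the only rise on the MAS5.0 scale (1.06, SE 0.14, adjusted p = 0.00035). Of 9 genes of glutathione and NADPH use in red cells 4 were lower and 1 higher, a balance that turned to 2 lower and 5 higher with hybridisation control scaling and stood at 6 and 1 with 75th percentile scaling. Blvrb, the biliverdin reductase B of red cells, fell by 1.39 (SE 0.089, adjusted p = 9.8e-06), reading 14.08 to 14.25 in WT and 12.75 to 12.82 in KO. Gclm, the modifier subunit of the enzyme that starts glutathione synthesis, rose by 0.66 (SE 0.10, adjusted p = 0.00099).

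**Figure D4:**
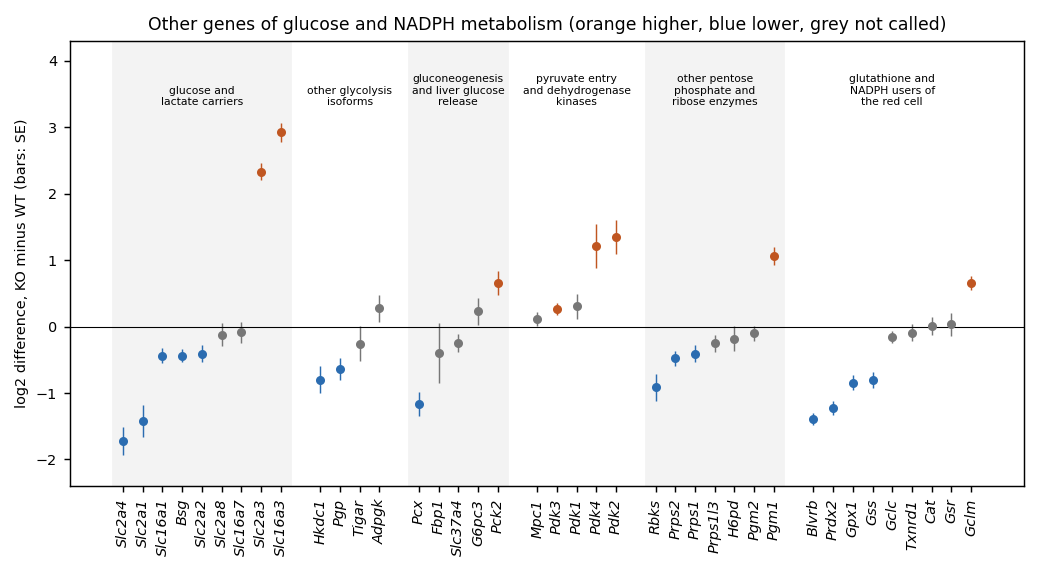
Log2 difference (KO minus WT, y axis, bars of 1 SE from limma) of the 39 tested genes of 6 further lists, grouped by list and ordered by difference (x axis), with orange for called higher, blue for called lower and grey for not called. Pdk4 lay below the minimum in WT, so the size of its difference is not exact. Slc2a4 and Slc2a1 lie at the bottom of the carriers and Slc2a3 and Slc16a3 at the top, and the blue points of Slc2a2, Slc16a1, Bsg, Pgp, Prps1 and Prps2 cross 0 when arrays are scaled to the hybridisation controls.

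A scaling of whole arrays moved all differences together, while quantile normalization moved them by unequal amounts. With the latter, Ldha went from 0.15 to 0.65 and Pfkfb4 from 0.65 to 0.27. Relative to the MAS5.0 scale, 75th percentile scaling added -0.27 to each difference, poly-A control scaling 0.076 and hybridisation control scaling 0.75, while quantile normalization took the median of the whole array from 0.17 to -0.033. Hk2, Pfkm, Pfkp, Pfkfb3, Aldoa, Aldoc, Pgam1, Pkm and Pklr kept their direction and their call under all alternatives run for them. The calls of Tpi1, Pgk1, Pgd and Taldo1 were lost with 75th percentile scaling, where their differences were 0.22, 0.17, 0.37 and 0.064. All of these were also lost with poly-A control scaling without the Trpn probe sets and with the replicate number as a block. Taldo1 lost its call with poly-A control scaling and with no filter as well, and Pgd on its brightest probe set without a shared-probe name.

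**Figure D5:**
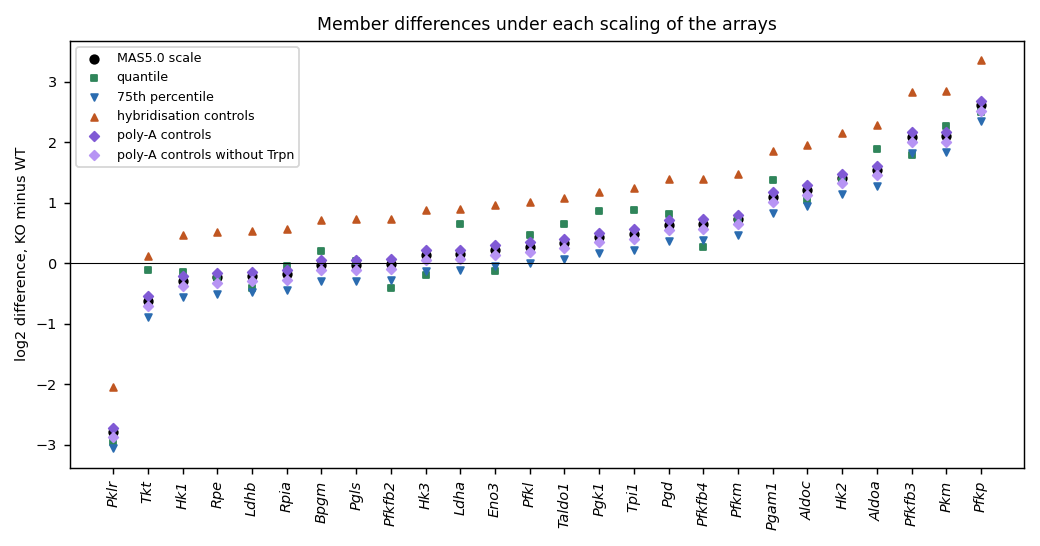
Log2 difference (KO minus WT, y axis) of the 26 tested members (x axis, ordered by the difference on the MAS5.0 scale) under 6 scalings of the arrays. Pklr stays below 0 and the members from Taldo1 to Pfkp stay above 0 at every scaling, while Tkt, Hk1, Rpe, Ldhb, Rpia, Bpgm, Pgls and Pfkfb2 lie at or below 0 on the MAS5.0 scale and above it when arrays are scaled to the hybridisation controls.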

How the data were processed

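Affymetrix arrays of 4 WT and 4 KO fetal livers were used. Each deposited value is a linear intensity that the authors obtained with MAS5.0. MAS5, with no version, and R 3.0.2 are named in the submitters' processing notes. The methods name the smaller A version of the array, whereas the probe sets are those of the full mouse genome array. Any 2 arrays had at most 1 value in common, and all were counted as separate samples.

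The platform annotation gives a single symbol to 34945 of the 45101 probe sets, several to 932 and none to 9160, and 64 are controls. Genes were named from probe sets with 1 symbol only. The annotation can be old.

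Intensities were log2-transformed with no pseudocount. Non-control probe sets that exceeded a signal of 100 in the WT or the KO mean were tested with limma 3.58.1 in R 4.3.3 (lmFit and eBayes, two-sided, genotype as the only term), with Benjamini-Hochberg adjustment over the 23379 tested. Folds are those of the mean log2 values. Pairs of genes, and the controls of Gapdh, were compared by exact permutation tests. The limma test was tried on simulated data with known changes. Tables and figures were made with Python 3.11.15, pandas 2.3.3 and numpy 2.4.6. Affymetrix signals carry no count of molecules.

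All members were accounted for by step of the pathway. Values of every array were given for the called member with the largest change in each step, for both genes of each tested pair and for Bpgm and Gapdh. In each further list the largest called rise and fall were named, and further carriers, Pfkfb3, Pdk genes, probe sets other than the brightest and genes of the markers were picked with their values in view. The members and the lists were chosen with earlier results of these data known.

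Alternatives tried were scaling to the 75th percentile, to the hybridisation controls (bacterial transcripts added to the hybridisation mix) or to the poly-A controls (bacterial transcripts added to the RNA), quantile normalization, pseudocounts of 16 and 64, no filter and a filter at 200, limma's trend and robust options, the methods' t-test, the mean of all tested probe sets of a gene, the replicate number as a block, and leaving out each array. Poly-A scaling without the Trpn probe sets, and the brightest probe set without a shared-probe name, were added after seeing the data.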

Additional observations from a re-analysis of the deposited data

Results flagged for a closer look

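Among 52 groups of 4 arrays examined, the 2 genotypes of each of the 26 tested members, 4 held an array far from the others, by the gap to its nearest neighbour over the range of the group, past Dixon's critical value at 95%. Chance flags about 1 group in 20. Pklr in KO had a ratio of 0.976, with KO replicate 3 at 7.74 and the others at 8.59 to 8.61, and its difference was -2.58 without that array (-2.79 with it). Ldha in WT had a ratio of 0.868 and Ldhb in WT a ratio of 0.931, both through WT replicate 3, which read 14.53 for Ldha (14.34 to 14.36 in the others) and 9.86 for Ldhb (9.30 to 9.34 in the others). Pfkfb2 in WT had a ratio of 0.872, with WT replicate 4 at 7.67 and the others at 7.90 to 7.93. Neither Ldha, Ldhb nor Pfkfb2 was called on the MAS5.0 scale, with or without any single array.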

How the results depend on the processing

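Against 12 members higher and 3 lower, 14 and 1 were called after quantile normalization, 8 and 5 at a common 75th percentile (12.7% and 37.4% of all genes), and 23 and 1 with hybridisation control scaling (76.0% and 2.57% of all genes). By probe set, against 29 higher and 6 lower, 19 were higher at a common 75th percentile (21.8% of all probe sets), 19 with poly-A scaling without Trpn (24.6%), and 50 were higher and 3 lower with hybridisation control scaling (78.9% and 2.29%). Of the further genes, 24 were higher and 4 lower with hybridisation control scaling and 8 lower with poly-A control scaling, against 8 and 15. Signs turned with hybridisation control scaling for Hk1 (0.46), Bpgm (0.72), Pfkfb2 (0.74), Pgls (0.73), Rpia (0.57) and Rpe (0.51), all called there. Those of Tkt (0.13) and Ldhb (0.54) turned too but were not called. With the mean of all tested probe sets, signs turned for Hk1 (0.42, called) and, not called, Tkt (0.019), Bpgm (0.19), Ldhb (0.078) and Pfkfb2 (0.10). With the brightest probe set without a shared-probe name they turned for Bpgm (0.46) and Tkt (0.45). Of these members only Hk1 and Tkt were called on the MAS5.0 scale. Under the other scalings some differences of Hk3, Eno3, Ldha, Bpgm, Pgls and Pfkfb2 also crossed 0, none of them called on either side. Hybridisation control scaling adds 0.75 to every difference by construction, and the cause of the other changes was not tested.

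Leaving out 1 array gave 12 to 13 members higher and 2 to 3 lower, with Pklr less Pkm between -5.05 and -4.64. A scaling of the whole array cancels within a pair, so of the scalings only quantile normalization could change the pairs; with it and with the pseudocounts the 6 pairs kept their direction, at the lowest p the design allows. Aldoa less Aldoc passed after quantile normalization (0.85), and Ldhb less Ldha passed after quantile normalization (-1.06) and with pseudocounts of 16 (-0.36) and 64 (-0.34). With the methods' t-test 12 members were higher and 4 lower, both unadjusted and after Benjamini-Hochberg adjustment.

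Replicate numbers 2, 3 and 4 occur in both genotypes but nothing says that they pair the samples, and same-numbered arrays did not deviate together (correlations of -0.00084, -0.082 and -0.027). With the replicate number as a block, 8 members were higher and 1 lower, 20 probe sets higher and 3 lower, and 6 further genes higher and 10 lower. Calls dropped over the whole array too, to 5579 higher and 2201 lower of 23379 probe sets, against 8049 and 4146 without the block. WT replicate 1 and KO replicate 5 have no partner in that fit, so it rests on replicates 2 to 4.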
